A study of Mus musculus with 12 samples.

Results

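The 48 collagen, laminin and integrin genes described here were the protein-coding genes whose symbols name a collagen chain, a laminin chain or an integrin subunit. They were taken by symbol alone, from 17340 genes with counts, 12665 of them protein-coding, and the rule uses no measured value. There were 21 collagen genes, 7 laminin genes and 20 integrin genes. Binding partners with similar symbols, such as Itgb1bp1, were left out.

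RNA-seq was done on KPC cells, a mouse pancreatic cancer line labelled C57BL/6, in 4 groups of 3 libraries. For 48 h the cells were given 1 µM of JQ1, I-BET151 or ITF2357, or served as the control, which the labels call both untreated and PBS. The solvent of the compounds is not given in the sources used, and an effect of it was not tested. All comparisons with the control share its 3 libraries, so a change common to the 3 compounds is not seen 3 times independently. JQ1 and I-BET151 are inhibitors of the BET bromodomain proteins, readers of acetylated histones, and ITF2357 (givinostat) inhibits histone deacetylases. Separate cultures are not stated for the 3 libraries of a group, so p-values measure the spread between these libraries, which may be technical. Nor do the labels call the line a single clone.

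Collagens are triple-helical proteins. Fibrillar collagens build the tensile fibres of connective tissue, and type IV collagen forms the network of basement membranes. Laminins are trimers of an alpha, a beta and a gamma chain that assemble into the second network of basement membranes. Integrins are receptors of an alpha and a beta subunit that bind these proteins outside the cell and couple to the actin cytoskeleton inside it. In pancreatic cancer most collagen of the surrounding stroma is made by fibroblasts, while the carcinoma cells make basement membrane proteins and carry integrins.

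Libraries held 21 to 31.2 M counts, and no pair of replicates matched within sampling noise (chi-square over degrees of freedom, 1.62 to 5.2). The 48 genes took 0.7328 to 0.7436% of all counts in the control, 0.7528 to 0.7653% with JQ1, 0.5626 to 0.5682% with I-BET151 and 0.6507 to 0.6765% with ITF2357. Of 8 epithelial markers 7 were in the table, with summed levels of 3130 to 3230 CPM (counts per M counts of a library) in the control, 3360 to 3430 with JQ1, 4600 to 4660 with I-BET151 and 4920 to 5130 with ITF2357. Of 9 fibroblast markers 3 were in it (Acta2, Pdgfra and Pdgfrb). Their sum was 8.81 to 9.81 CPM in the control, 10.9 to 14.4 with JQ1, 3.5 to 5.73 with I-BET151 and 9.61 to 12.7 with ITF2357. The other fibroblast markers, among them Dcn, Lum, Thy1 and Fap, were not analysed here. Leukocyte markers were represented by Cd68, 1 of 8, at 6.61 to 7.69, 6.14 to 7.91, 6.08 to 8.11 and 4.15 to 4.67 CPM in the same order of groups, and endothelial markers by Kdr and Pecam1, 2 of 6, with sums of 3.86 to 4.37, 3.28 to 3.79, 0.844 to 0.971 and 0.951 to 1.45 CPM.

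Promoter sequences are shown for 2 pairs of genes that the results turn on, as RefSeq gives them in build GRCm38.p6, from 250 bases before to 50 bases after the RefSeq gene start. For Lamb1 and Lamb2 that start lies further in than the first base of the GENCODE coordinates given below. Col4a1 and Col4a2 encode the chains of the main type IV collagen and start head to head, so their windows share 78 bases, read from opposite strands. Their levels kept nearly the same ratio in every group. Lamb1 and Lamb2 encode alternative laminin beta chains and went in opposite directions with I-BET151 and ITF2357. Capitals mark matches to the GC box GGGCGG on either strand, so that CCGCCC is a match on the other strand.
Col4a1, chr8:11312777-11313076, minus strand: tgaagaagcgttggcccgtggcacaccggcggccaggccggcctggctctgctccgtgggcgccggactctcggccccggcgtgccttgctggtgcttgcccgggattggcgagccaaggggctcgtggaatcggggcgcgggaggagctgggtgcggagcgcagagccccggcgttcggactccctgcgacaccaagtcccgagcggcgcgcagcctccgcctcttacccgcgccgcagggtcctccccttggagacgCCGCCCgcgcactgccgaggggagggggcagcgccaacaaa
Col4a2, chr8:11312555-11312854, plus strand: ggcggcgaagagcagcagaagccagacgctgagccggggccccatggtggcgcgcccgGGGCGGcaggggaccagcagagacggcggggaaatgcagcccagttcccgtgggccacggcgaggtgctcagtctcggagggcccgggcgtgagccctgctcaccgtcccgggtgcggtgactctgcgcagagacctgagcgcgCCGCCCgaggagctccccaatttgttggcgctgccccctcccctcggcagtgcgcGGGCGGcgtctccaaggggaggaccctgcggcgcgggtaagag
Lamb1, chr12:31265043-31265342, plus strand: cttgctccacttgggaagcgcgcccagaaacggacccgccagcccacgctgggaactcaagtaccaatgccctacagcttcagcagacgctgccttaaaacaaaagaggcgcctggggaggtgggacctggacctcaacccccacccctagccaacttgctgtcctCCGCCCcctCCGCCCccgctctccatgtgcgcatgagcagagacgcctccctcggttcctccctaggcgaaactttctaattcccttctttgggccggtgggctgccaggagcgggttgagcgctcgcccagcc
Lamb2, chr9:108479612-108479911, plus strand: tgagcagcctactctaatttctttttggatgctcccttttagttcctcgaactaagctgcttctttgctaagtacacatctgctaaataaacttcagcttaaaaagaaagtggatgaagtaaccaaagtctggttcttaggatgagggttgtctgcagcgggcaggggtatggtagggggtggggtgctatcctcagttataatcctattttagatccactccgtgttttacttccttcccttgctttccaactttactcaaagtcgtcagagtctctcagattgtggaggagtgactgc

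The GC box occurred 1 time in the Col4a1 window and 3 times in that of Col4a2, 2 times in that of Lamb1 and 0 times in that of Lamb2. The GC content was 74%, 73.7%, 63.7% and 44% in the same order. A further 3 motifs were searched on both strands: the AP-1 element TGANTCA, the E-box CACGTG and the TATA box TATAAA. None of these 3 was found in the 4 windows. Of the 48 genes 36 had a window in the table, 41 windows in all. Of these, 24 (58.5%) held a GC box, against 35.7% of all 32851 windows of that length, 2 (4.9%) an AP-1 element against 7.8%, none (0.0%) an E-box against 7.2%, and 1 (2.4%) a TATA box against 13.6%. A match describes letters in the window and is no evidence of a bound site, and no motif holds another within its letters.

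The levels of these genes spanned a wide range when set per kb of gene length (plot of levels per kb). Among the collagens of control cells Col4a1 was highest with 49.7 ± 0.999 CPM per kb (SD, n = 3), followed by Col18a1 with 30.5 ± 1.16, Col6a1 with 25.6 ± 0.444 and Col4a2 with 25.4 ± 0.731, the last 2 of which did not differ beyond their spread. Lama5 led the laminins with 109 ± 2.84 CPM per kb, followed by Lamc1 with 38.2 ± 0.468, Lamb1 with 30.4 ± 0.411 and Lamb2 with 19.3 ± 0.749. Itga3, with 166 ± 3.49 CPM per kb, and Itgb1, with 141 ± 0.837, were the highest integrins. Itga2 at 71.2 ± 0.48 and Itga6 at 69.9 ± 1.62 CPM per kb came next and lay within 1 SD of each other, as did Itgav at 59.8 ± 1.22 and Itgb5 at 58.7 ± 2.12. The fibrillar collagens sat lower, with Col5a1 at 15.3 ± 0.38, Col27a1 at 6.27 ± 0.124 and Col1a1, the main collagen of stromal fibres, at 2.22 ± 0.0401 CPM per kb. The highest collagens were thus of type IV, XVIII and VI, the first 2 of which belong to basement membranes.

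**Figure D1:**
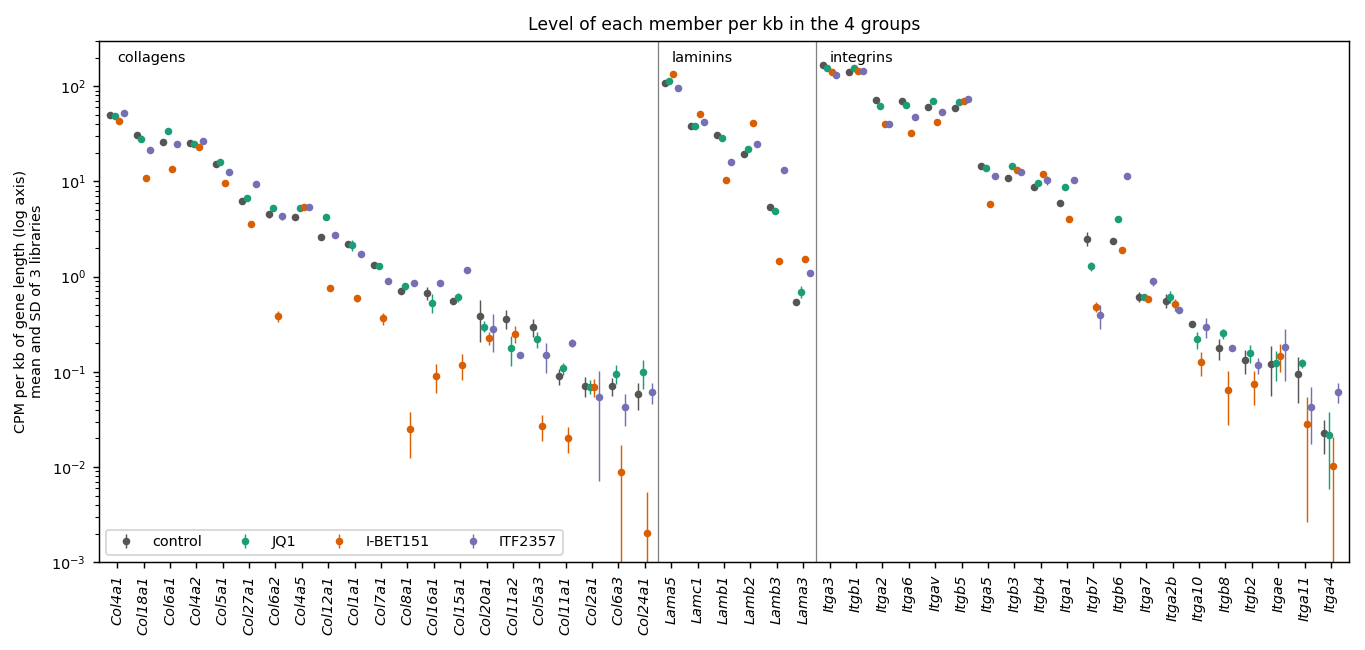
CPM per kb of gene length (log axis) of 47 of the 48 genes, ordered within each family by the control level; points are means and bars SDs of 3 libraries per group, and bars that reach below the axis are cut there. Col4a1, Lama5 and Itga3 lead their families in the control, and the I-BET151 points lie far below the others for many low collagens such as Col8a1 and Col6a3.

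Summed over each family, collagen RNA was at 1234 ± 22.8 CPM in the control, 1282 ± 14.1 after JQ1, 799 ± 9.97 after I-BET151 and 1217 ± 47.5 after ITF2357 (SD, n = 3). The laminin sum was 2059.8 ± 32 CPM in the control, 2112 ± 34.1 after JQ1, 2357 ± 28.3 after I-BET151 and 1926 ± 75.7 after ITF2357. The integrin sum was 3857 ± 13.1, 3966 ± 22.9, 2954 ± 11.7 and 3387 ± 21.2 CPM in the same order. I-BET151 libraries were thus lowest for collagens and integrins. They were highest for laminins with TMM scaling, but as a share of library totals their laminin counts, 0.2152 to 0.2209%, overlapped with those of JQ1, 0.2147 to 0.2212%. In bulk RNA, fewer cells of a type and less RNA per cell cannot be told apart.

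A gene was called changed at an adjusted p under 0.05 in edgeR's quasi-likelihood test over all 17340 genes. With JQ1, 22 of the 48 genes were called (45.8%), where 24.8% of all genes were: 13 were higher and 9 lower, against 12.5% and 12.3% of all genes. With I-BET151, 40 were called (83.3%, against 63.1% of all genes), 8 higher and 32 lower, where the shares over all genes were 30.5% and 32.6%. With ITF2357, 31 were called (64.6%, against 54.0% of all genes), 17 higher and 14 lower, against 27.6% and 26.4%. The split by direction over all genes depends on the scaling: with library totals in place of TMM factors, the median of all genes shifted by -0.16 on the log2 scale in I-BET151 against control, by -0.15 in I-BET151 against JQ1 and by 0.14 in ITF2357 against I-BET151. In I-BET151 against control, 3657 genes were then called higher and 7435 lower, with 8 and 34 of the 48 genes. The I-BET151 log2 fold changes then became 0.14 for Lama5, 0.25 for Lamc1, 0.28 for Itgb4, 0.18 for Col4a5, 0.10 for Itgb3 and 0.08 for Itgb5 among the rises below, and -0.38 for Col4a1, -0.31 for Col4a2, -0.41 for Itga3 and -0.45 for Itgb6 among the falls, each still called. With upper quartile factors the JQ1 split of the 48 genes became 14 higher and 6 lower, and that of all genes 2494 higher and 1756 lower.

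The 3 families moved differently, most of all with I-BET151 (map of log2 fold changes). Of the 21 collagens, 18 fell with I-BET151, 1 rose (Col4a5) and 2 did not pass, with a median log2 fold change of -1.77, against -0.03 over all genes. Of the 20 integrins 11 fell, 3 rose and 6 did not pass, with a median of -0.53. All 7 laminins were called, 4 higher and 3 lower, with a median of 0.30, which was 0.14 with library totals. JQ1 left smaller differences: 5 collagens, 2 laminins and 6 integrins rose, and 2, 3 and 4 fell, with medians of 0.06, 0.01 and 0.12 against 0.00 over all genes. With ITF2357, 5 collagens, 5 laminins and 7 integrins rose, and 6, 2 and 6 fell, with medians of -0.04, 0.37 and -0.06 against -0.01 over all genes. The shares called among collagens, laminins and integrins were 33.3%, 71.4% and 50% with JQ1, against 24.8% of all genes. With I-BET151 they were 90.5%, 100% and 70%, against 63.1%. With ITF2357 they were 52.4%, 100% and 65%, against 54.0%, so the collagen share was below that of all genes. The differences between families were not tested as such. At least 2-fold changes were called in 1 of the 48 genes with JQ1 (Col11a2), 22 with I-BET151 and 8 with ITF2357, against 0.606%, 15.7% and 8.66% of all genes. The same count was 22 for I-BET151 against JQ1, 7 for ITF2357 against JQ1 and 19 for ITF2357 against I-BET151, where 13.6%, 6.34% and 14.0% of all genes passed.

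**Figure D2:**
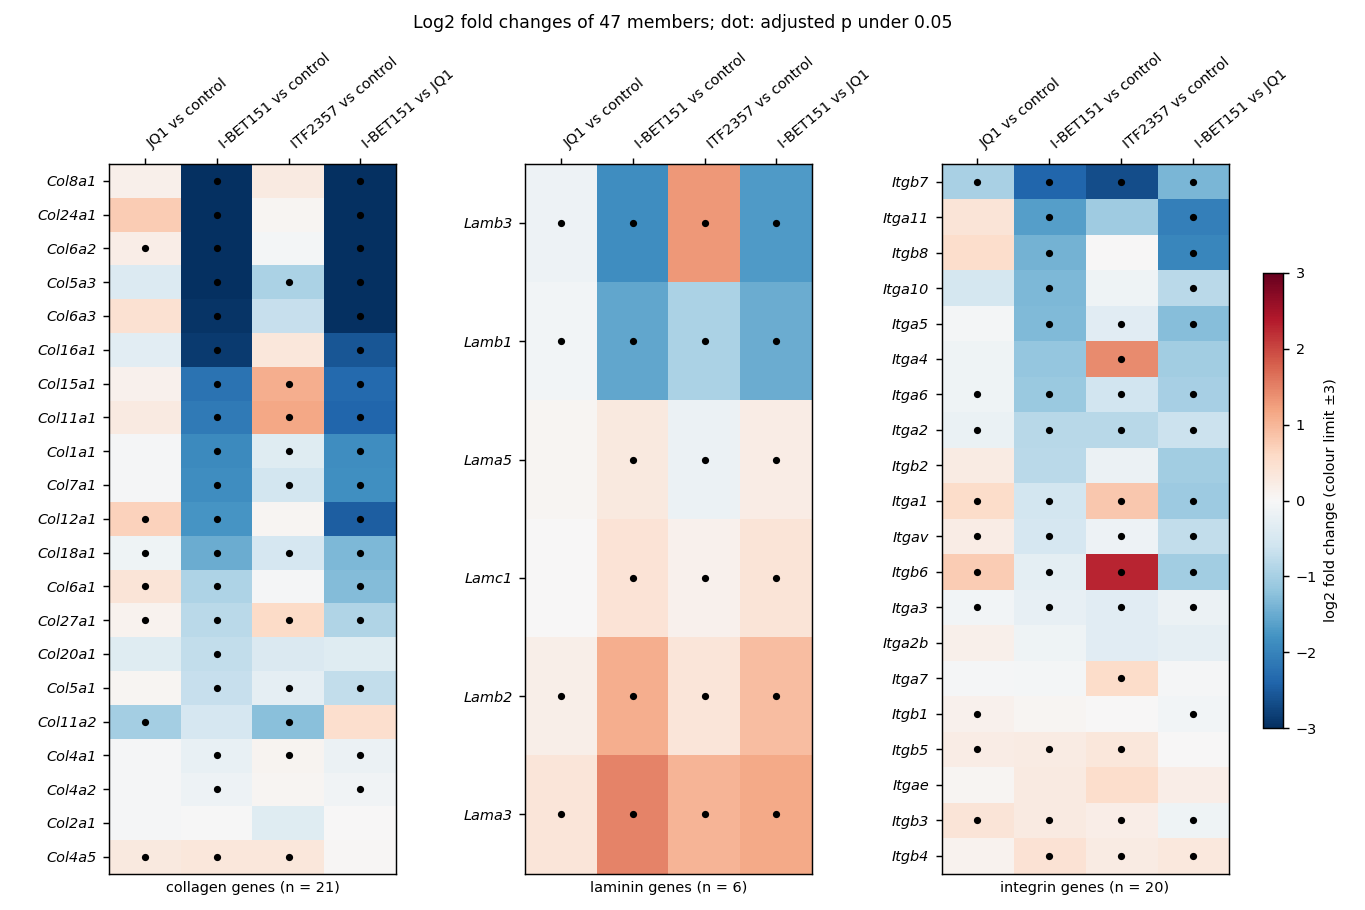
Log2 fold changes (colour, limited to ±3) of 47 of the collagen, laminin and integrin genes in 4 comparisons, ordered within a family by I-BET151 against control; a dot marks an adjusted p under 0.05. The collagen panel is mostly blue for I-BET151, with 18 of 21 genes lower where 32.6% of all genes were, and nearly white for JQ1. The laminin panel holds rises and falls side by side.

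The type IV collagens stayed within a narrow range. Col4a1, at chr8:11198423-11312826 in mm10, was at 364, 379 and 370.0 CPM in the control libraries, 352, 369 and 361 with JQ1, 311, 326 and 321 with I-BET151 and 396, 371 and 407 with ITF2357. Its I-BET151 libraries lay below all others, and the control range overlapped with those of JQ1 and ITF2357. The log2 fold change with I-BET151 was -0.22 ± 0.03 (SE, 3 libraries against 3, adjusted p = 6.95e-08), with JQ1 it was -0.04 ± 0.03 (adjusted p = 0.328), and with ITF2357 it was 0.08 ± 0.03 (adjusted p = 0.0213). The last call was lost with library totals (0.05, adjusted p = 0.118), with upper quartile factors (0.04, adjusted p = 0.217) and without control replicate 1 or 3 or ITF2357 replicate 1 or 3 (adjusted p from 0.0595 to 0.142). Col4a2, its partner at chr8:11312805-11449287, was at 163, 173 and 169 CPM in the control libraries, 164, 171 and 158 with JQ1, 154, 151 and 151 with I-BET151 and 173, 166 and 184 with ITF2357. It followed the same order, with I-BET151 lowest, and fell there by 0.15 on the log2 scale (adjusted p = 0.000319), while JQ1 gave -0.04 ± 0.03 (adjusted p = 0.495) and ITF2357 0.05 ± 0.03 (adjusted p = 0.218). The last passed without ITF2357 replicate 2 (adjusted p = 0.0358). The ratio of Col4a1 to Col4a2 per kb was 1.95 ± 0.019 in the control, 1.95 ± 0.0642 after JQ1, 1.87 ± 0.0646 after I-BET151 and 1.99 ± 0.0325 after ITF2357. Col4a5, which encodes the alpha5 chain of another type IV trimer, rose with all 3 compounds, by 0.30 ± 0.06 after JQ1, 0.34 ± 0.06 after I-BET151 and 0.33 ± 0.06 after ITF2357 on the log2 scale.

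Col18a1, which encodes a basement membrane collagen whose end fragment is endostatin, was at 205, 216 and 221 CPM in the control libraries, 196, 199.5 and 191 with JQ1, 74.7, 80.5 and 74.4 with I-BET151 and 151, 144 and 159 with ITF2357. The 3 treated groups lay below the control without overlap, with I-BET151 lowest. The log2 fold changes were -0.13 ± 0.03 with JQ1 (adjusted p = 0.00393), -1.48 ± 0.04 with I-BET151 (adjusted p = 7.52e-27) and -0.50 ± 0.03 with ITF2357 (adjusted p = 2.05e-14). Its relative Col15a1, at low levels, fell by 2.22 with I-BET151 and rose by 1.09 with ITF2357 on the log2 scale. Col7a1, which forms the anchoring fibrils that tie epithelial basement membranes to the tissue below, fell with I-BET151 (-1.87 ± 0.11) and with ITF2357 (-0.55 ± 0.09).

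Col8a1, a short-chain collagen that forms networks in vessels and in the cornea, was at 5.65, 5.39 and 5.66 CPM in the control libraries, 6.28, 5.69 and 6.69 with JQ1, 0.291, 0.211 and 0.0919 with I-BET151 and 6.91, 6.75 and 6.5 with ITF2357. The I-BET151 libraries stood far below all others, while those of JQ1 and ITF2357 lay slightly above the control. This was the largest fall among the genes averaging at least 1 CPM, -4.79 ± 0.25 on the log2 scale (adjusted p = 4.65e-18), a 27.6-fold lower level. JQ1 gave 0.16 ± 0.13 (adjusted p = 0.412) and ITF2357 0.27 ± 0.13 (adjusted p = 0.0712).

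The genes of type VI collagen, a beaded filament around cells, showed the same contrast between the BET inhibitors. Col6a2 was at 35.4, 40.9 and 36.2 CPM in the control libraries, 41.4, 46.6 and 42.6 with JQ1, 2.72, 3.5 and 3.31 with I-BET151 and 34, 33.7 and 39.4 with ITF2357. Every I-BET151 library lay far below the lowest library of any other group, JQ1 libraries lay just above the control, and the ITF2357 and control ranges overlapped. The log2 fold change was -3.55 ± 0.10 with I-BET151 (adjusted p = 1.43e-25), 0.21 ± 0.07 with JQ1 (adjusted p = 0.0135) and -0.07 ± 0.07 (adjusted p = 0.407) with ITF2357. Col6a1, the neighbouring gene on chromosome 10, 85.2 kb away, fell less with I-BET151 (-0.92 ± 0.04) and rose with JQ1 (0.39 ± 0.04). The ratio of Col6a1 to Col6a2 per kb was 5.71 ± 0.36 in the control, 6.42 ± 0.366 after JQ1, 36.2 ± 6.94 after I-BET151 and 5.84 ± 0.679 after ITF2357. Col6a3, at low counts, gave -2.94 ± 0.55 with I-BET151. Col12a1, a collagen that decorates fibril surfaces, was higher with JQ1 (0.69 ± 0.05) and lower with I-BET151 (-1.77 ± 0.07), with 0.07 ± 0.05 (adjusted p = 0.302) for ITF2357, which passed without ITF2357 replicate 3 (adjusted p = 0.0334). Col16a1, of the same class, fell with I-BET151 (-2.88 ± 0.24) and gave 0.35 ± 0.16 (adjusted p = 0.0616) with ITF2357. The latter passed in a fit of the 6 libraries compared (adjusted p = 0.0427) and without control replicate 3 (adjusted p = 0.0261). Col20a1 fell with I-BET151 (-0.74 ± 0.31), a call lost with DESeq2 (adjusted p = 0.0562) and without control replicate 2 or I-BET151 replicate 1 or 3 (adjusted p from 0.102 to 0.438), with a log2 fold change of -0.31 without control replicate 2. With ITF2357 it gave -0.43 ± 0.29 (adjusted p = 0.217) and passed without ITF2357 replicate 3 (adjusted p = 0.0226), at -0.81.

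Among the fibrillar collagens, Col5a1, a regulator of fibril diameter, was the most abundant, at 126, 131 and 132 CPM in the control libraries, 134, 136 and 136 with JQ1, 76.2, 82.6 and 83.6 with I-BET151 and 103, 104 and 115 with ITF2357. I-BET151 libraries were lowest, ITF2357 libraries lay between them and the control, and JQ1 libraries lay just above the control. Its log2 fold change was -0.68 ± 0.04 with I-BET151 (adjusted p = 1.82e-16), -0.27 ± 0.04 with ITF2357 (adjusted p = 3.46e-07) and 0.06 ± 0.04 (adjusted p = 0.261) with JQ1. Col1a1 fell with I-BET151 (-1.90 ± 0.11) and with ITF2357 (-0.37 ± 0.09), and Col5a3 did so too (-3.43 ± 0.39 and -0.96 ± 0.27). Col27a1 fell with I-BET151 (-0.81 ± 0.04) and rose with ITF2357 (0.58 ± 0.04), and the low Col11a1 did likewise (-2.13 ± 0.36 and 1.16 ± 0.24). Fibroblast markers moved as well. With I-BET151 Pdgfra (-1.50 ± 0.18) and Pdgfrb (-0.69 ± 0.27) fell and Acta2 gave -0.26 ± 0.27 (adjusted p = 0.406), and the summed level of the 3 was 3.5 to 5.73 against 8.81 to 9.81 CPM in the control. With ITF2357 Acta2 (-0.98 ± 0.28) and Pdgfrb (-1.73 ± 0.29) fell and Pdgfra rose (0.65 ± 0.14). Their part in the fibrillar collagen differences was not tested.

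Col11a2 was the member that moved most with JQ1, at low levels of 2.08, 2.25 and 3.11 CPM in the control libraries, 1.6, 1.3 and 0.751 with JQ1, 1.6, 2.11 and 1.47 with I-BET151 and 1.05, 1.06 and 1.02 with ITF2357. All JQ1 and ITF2357 libraries lay below the control libraries, while those of I-BET151 overlapped with them. On the log2 scale the change was -1.02 ± 0.25 with JQ1 (adjusted p = 0.00247) and -1.25 ± 0.26 with ITF2357 (adjusted p = 9.61e-05), and -0.51 ± 0.25 (adjusted p = 0.0693) with I-BET151. The I-BET151 value passed with library totals (-0.67, adjusted p = 0.0173) and in a fit of the 6 libraries compared (adjusted p = 0.0415). It also passed without control replicate 1 or I-BET151 replicate 2 (adjusted p from 0.0395 to 0.0477). Col24a1 had 1 count over the 3 I-BET151 libraries against 31 over the control libraries, a ratio per library size of 0.0341 with a 95% counting interval from 0.00084 to 0.2. Col2a1, the cartilage collagen, did not pass in any comparison with the control. With ITF2357 it passed without ITF2357 replicate 1 (adjusted p = 0.0461), at a log2 fold change of -1.29.

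**Figure D3:**
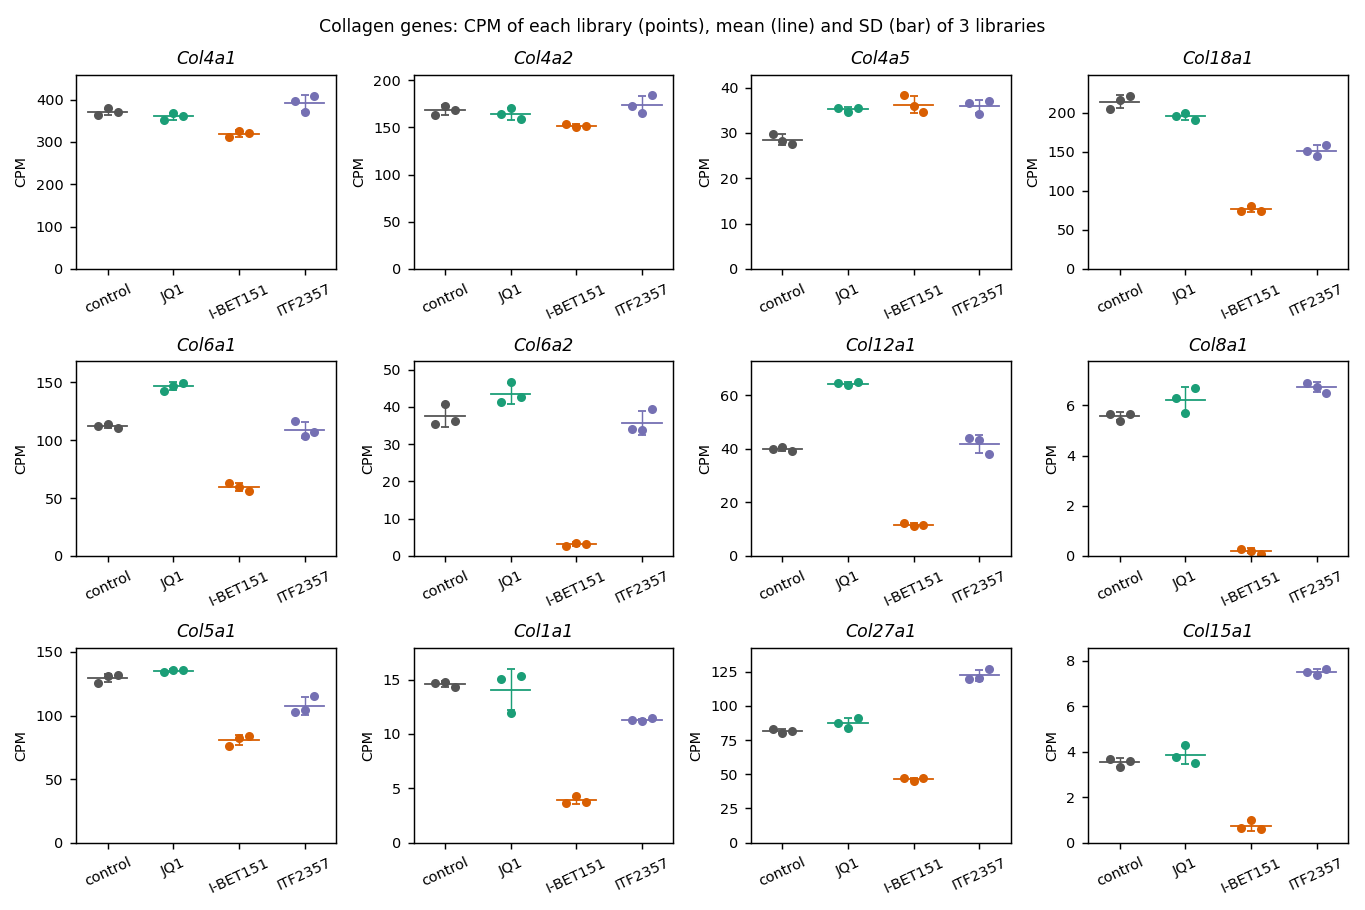
CPM of each library (points), with group mean (line) and SD (bar), for 12 collagen genes in the 4 groups of 3 libraries. Col4a1, Col4a2 and Col4a5 stay within a narrow range, whereas Col6a2 and Col8a1 are near 0 with I-BET151 and Col15a1 and Col27a1 are highest with ITF2357.

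The laminins changed their makeup more than their sum. Lama5, the alpha chain of the most widespread adult basement membrane laminin, was at 1199.9, 1259.6 and 1251 CPM in the control libraries, 1280.2, 1324 and 1283 with JQ1, 1559, 1513 and 1494 with I-BET151 and 1091, 1031 and 1149 with ITF2357. I-BET151 libraries were highest and ITF2357 libraries lowest, each without overlap with the control. The log2 fold change was 0.30 ± 0.03 with I-BET151 (adjusted p = 8.64e-12), -0.18 ± 0.03 with ITF2357 (adjusted p = 6.19e-07) and 0.07 ± 0.03 (adjusted p = 0.0682) with JQ1. The JQ1 value passed with RLE size factors (adjusted p = 0.0424), upper quartile factors (adjusted p = 0.0125) and DESeq2 (adjusted p = 0.0495). It also passed in a fit of the 6 libraries compared (adjusted p = 0.00629). Lamc1, the gamma chain of most laminins, was at 315, 313 and 320.4 CPM in the control libraries, 317, 321 and 319 with JQ1, 413, 424 and 420.1 with I-BET151 and 355, 345 and 343 with ITF2357. It was highest with I-BET151 (0.41 ± 0.02, adjusted p = 1.4e-16), rose slightly with ITF2357 (0.14 ± 0.02, adjusted p = 1.02e-05) and gave 0.01 ± 0.02 (adjusted p = 0.752) with JQ1.

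The beta chains exchanged rank. Lamb1, at chr12:31265234-31329644, was at 306, 302 and 297 CPM in the control libraries, 277, 289 and 291 with JQ1, 97.8, 103 and 106 with I-BET151 and 159, 151 and 161 with ITF2357. The I-BET151 libraries were lowest, 2.94-fold below the control, with those of ITF2357 in between and those of JQ1 just below the control. The changes on the log2 scale were -1.56 ± 0.03 with I-BET151 (adjusted p = 1.79e-29), -0.94 ± 0.03 with ITF2357 (adjusted p = 1.33e-23) and -0.08 ± 0.03 with JQ1 (adjusted p = 0.0467). Lamb2, at chr9:108479736-108490530, was at 115, 114 and 122 CPM in the control libraries, 131, 137 and 132 with JQ1, 257, 255 and 244 with I-BET151 and 155, 142 and 157 with ITF2357. All 3 treated groups lay above the control libraries, with I-BET151 highest. Fitted log2 fold changes were 1.10 ± 0.04 with I-BET151 (adjusted p = 4.98e-24), 0.37 ± 0.04 with ITF2357 (adjusted p = 8.91e-11) and 0.18 ± 0.04 with JQ1 (adjusted p = 0.000209). The ratio of Lamb1 to Lamb2 per kb went from 1.58 ± 0.0787 in the control to 1.32 ± 0.035 with JQ1, 0.637 ± 0.0149 with ITF2357 and 0.25 ± 0.0171 with I-BET151. The Lamb1 call with JQ1 was lost with the replicate block (adjusted p = 0.0548), RLE size factors (adjusted p = 0.0754), upper quartile factors (adjusted p = 0.184) and DESeq2 (adjusted p = 0.0768), and without control replicate 1, 2 or 3 or JQ1 replicate 1 or 2 (adjusted p from 0.0627 to 0.261).

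Lama3 and Lamb3 encode an alpha and a beta chain of the epithelial laminin found under skin and glands, and they did not move as a unit. Lama3 rose with all 3 compounds, by 0.36 ± 0.11 after JQ1, 1.49 ± 0.11 after I-BET151 and 1.02 ± 0.11 after ITF2357 on the log2 scale. Lamb3 fell by 1.86 with I-BET151 (adjusted p = 1.2e-22) and rose by 1.30 with ITF2357 (adjusted p = 1.5e-21), so that it stood 8.93-fold higher with ITF2357 than with I-BET151. With ITF2357 both chains were therefore higher than in the control, while with I-BET151 Lama3 was higher and Lamb3 lower. The JQ1 call of Lama3 was lost without control replicate 1 or 3 or JQ1 replicate 2 (adjusted p from 0.05 to 0.151). That of Lamb3 was lost with upper quartile factors (adjusted p = 0.0791), with DESeq2 (adjusted p = 0.0605) and without control replicate 1 or 2 or JQ1 replicate 2 or 3 (adjusted p from 0.0686 to 0.187).

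**Figure D4:**
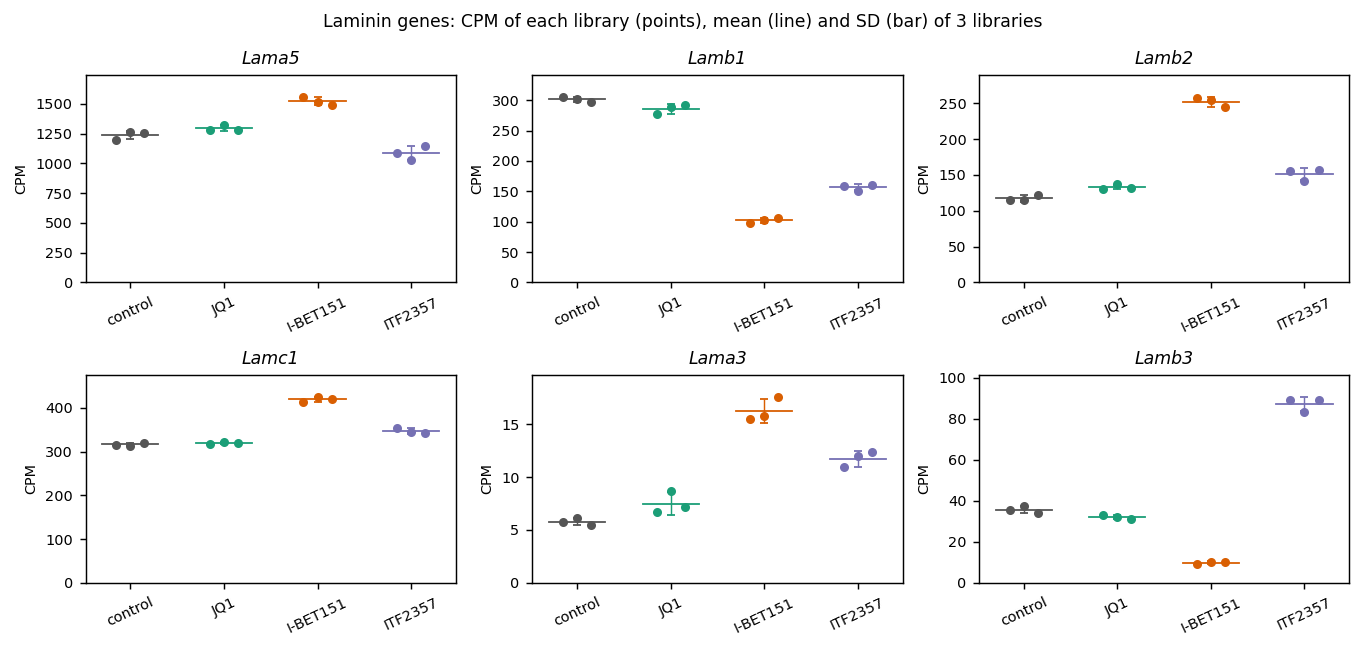
CPM of each library (points), with group mean (line) and SD (bar), for 6 laminin genes in the 4 groups of 3 libraries. Lamb1 falls and Lamb2 rises with I-BET151, and Lamb3 is highest with ITF2357.

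Among the laminin-binding integrins, Itga3, at chr11:95044474-95076801, was the highest member of its family, at 927, 965 and 957 CPM in the control libraries, 878, 920.4 and 891 with JQ1, 825, 786 and 783 with I-BET151 and 757, 723 and 791 with ITF2357. The 3 treated groups lay below the control, with overlapping ranges for I-BET151 and ITF2357. The log2 fold changes were -0.08 ± 0.03 with JQ1 (adjusted p = 0.0184), -0.25 ± 0.03 with I-BET151 (adjusted p = 5.14e-10) and -0.33 ± 0.03 with ITF2357 (adjusted p = 1.5e-12). The JQ1 call was lost with upper quartile factors (adjusted p = 0.0891) and without control replicate 2 or 3 or JQ1 replicate 1 or 3 (adjusted p from 0.058 to 0.11). Itga6, which pairs with Itgb4 in hemidesmosomes, was at 647, 627 and 619 CPM in the control libraries, 579.9, 578 and 573 with JQ1, 289, 289.7 and 292 with I-BET151 and 421, 437 and 417 with ITF2357. The groups did not overlap, and the order was control, JQ1, ITF2357 and I-BET151. Log2 fold changes were -0.13 ± 0.02 with JQ1 (adjusted p = 5.9e-05), -1.12 ± 0.02 with I-BET151 (adjusted p = 7.23e-29) and -0.57 ± 0.02 with ITF2357 (adjusted p = 1.64e-20). Its partner Itgb4 rose instead, by 0.44 ± 0.05 with I-BET151 and 0.24 ± 0.05 with ITF2357 on the log2 scale. The ITF2357 libraries overlapped with the control for Itgb4, and those of I-BET151 did not. Of the Itgb4 exon bases 7.7% lie opposite B230344G16Rik, and reads of the 2 strands may have been counted together. The ratio of Itga6 to Itga3 per kb was 0.42 ± 0.0183 in the control and 0.23 ± 0.00755 with I-BET151. Itga7, known as the laminin receptor of muscle, rose with ITF2357 (0.54 ± 0.13).

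Itgb1, the beta subunit shared by the collagen- and most laminin-binding integrins, was the steadiest of the abundant members, at 569.5, 575 and 576 CPM in the control libraries, 632, 622 and 631 with JQ1, 581, 594 and 603 with I-BET151 and 589, 600.0 and 558 with ITF2357. The JQ1 and I-BET151 libraries lay above all control libraries, and the ITF2357 range overlapped with those of the control and I-BET151. JQ1 gave 0.13 ± 0.02 (adjusted p = 6.93e-05), I-BET151 0.05 ± 0.02 (adjusted p = 0.0898) and ITF2357 0.02 ± 0.02 (adjusted p = 0.457). The I-BET151 value depends on the scaling: it was -0.11 with library totals, past the threshold (adjusted p = 8.2e-05), and 0.06 with RLE size factors (adjusted p = 0.0449). It also passed as a rise with DESeq2 (adjusted p = 0.0426), in a fit of the 6 libraries compared (adjusted p = 0.0205) and without I-BET151 replicate 1 (adjusted p = 0.0414).

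The collagen-binding alpha subunits diverged. Itga2 fell with all 3 compounds (-0.19 ± 0.03, -0.83 ± 0.03 and -0.83 ± 0.03 with JQ1, I-BET151 and ITF2357). Itga1, 21 kb from it on chromosome 13, rose with JQ1 (0.55 ± 0.03) and ITF2357 (0.80 ± 0.03) and fell with I-BET151 (-0.55 ± 0.04). The ratio of Itga2 to Itga1 per kb was 12 ± 0.244 in the control, 7.2 ± 0.237 after JQ1, 9.89 ± 0.596 after I-BET151 and 3.89 ± 0.0364 after ITF2357. Itga10 fell with I-BET151 (-1.34 ± 0.30), but 33.5% of its exon bases are shared with another annotated gene on the same strand, Gm42957, so its counts are uncertain. Itga11 fell with I-BET151 (-1.66 ± 0.61), a call lost without control replicate 2 or 3 or I-BET151 replicate 1 or 3 (adjusted p from 0.0532 to 0.0969), and its log2 fold change was -2.70 without I-BET151 replicate 2. With ITF2357 Itga11 gave -1.06 ± 0.53 (adjusted p = 0.0902) and passed without control replicate 1 or ITF2357 replicate 1 (adjusted p from 0.0266 to 0.0448). The collagen receptor tyrosine kinases stood outside the integrins. Ddr1 rose with I-BET151 (0.69 ± 0.03), and its mean was also above the control (110 CPM) with JQ1 (124 CPM) and ITF2357 (152 CPM). Ddr2 fell with all 3 compounds (-0.68 ± 0.14, -4.33 ± 0.21 and -4.46 ± 0.20).

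Of the integrins that bind the RGD sequence of fibronectin, vitronectin and latent TGF-beta, Itgav was at 649, 627 and 651 CPM in the control libraries, 754, 752 and 738 with JQ1, 442, 449 and 463 with I-BET151 and 578, 599 and 565 with ITF2357. The 4 groups did not overlap, with JQ1 highest and I-BET151 lowest. The changes on the log2 scale were 0.22 ± 0.02 with JQ1 (adjusted p = 8.29e-09), -0.51 ± 0.02 with I-BET151 (adjusted p = 6.32e-19) and -0.15 ± 0.02 with ITF2357 (adjusted p = 4.13e-06). Of its exon bases 5.9% lie opposite Gm13684, and reads of the 2 strands may have been counted together. Itga5, the fibronectin receptor subunit, fell with I-BET151 (-1.33 ± 0.05) and ITF2357 (-0.35 ± 0.04). Its ligand Fn1 was higher with JQ1 (0.37 ± 0.02) and lower with I-BET151 (-0.55 ± 0.02) and ITF2357 (-0.23 ± 0.02). Itgb3 and Itgb5 rose with every compound, Itgb3 by 0.39, 0.26 and 0.20 and Itgb5 by 0.22, 0.24 and 0.33 with JQ1, I-BET151 and ITF2357.

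Itgb6, whose pairing with Itgav gives an epithelial activator of TGF-beta, was at 17, 17.2 and 15.9 CPM in the control libraries, 30.0, 27.8 and 27.2 with JQ1, 13.2, 14.3 and 13.6 with I-BET151 and 82.4, 81.2 and 81.7 with ITF2357. ITF2357 libraries stood far above all others, JQ1 libraries came second and I-BET151 libraries were below the control. The rise with ITF2357 was the largest of all 48 genes, 2.29 ± 0.05 on the log2 scale (adjusted p = 3.19e-27), 4.89-fold. JQ1 gave 0.76 ± 0.06 (adjusted p = 5.23e-12) and I-BET151 -0.29 ± 0.07 (adjusted p = 0.00047). Itgb8, the other TGF-beta activating beta subunit, fell with I-BET151 (-1.42 ± 0.30) and gave 0.53 ± 0.24 (adjusted p = 0.113) with JQ1. The JQ1 value passed in a fit of the 6 libraries compared (adjusted p = 0.036).

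The leukocyte-type integrins were low. Itgb7, which pairs with Itga4 or Itgae on lymphocytes, was at 8.14, 5.88 and 6.87 CPM in the control libraries, 3.11, 3.79 and 3.72 with JQ1, 1.16, 1.39 and 1.47 with I-BET151 and 1.43, 0.934 and 0.892 with ITF2357. Every treated library lay below every control library, and the I-BET151 and ITF2357 ranges overlapped. The log2 fold changes were -0.98 ± 0.16 with JQ1 (adjusted p = 1.36e-05), -2.37 ± 0.19 with I-BET151 (adjusted p = 7.1e-13) and -2.66 ± 0.19 with ITF2357 (adjusted p = 4.4e-14). Its partners had few counts. Itgae gave 0.26 ± 0.46 (adjusted p = 0.643) with I-BET151 and 0.52 ± 0.43 (adjusted p = 0.321) with ITF2357. Itga4 rose with ITF2357 (1.42 ± 0.49), a call lost without control replicate 3 (adjusted p = 0.0814), and gave -1.17 ± 0.70 (adjusted p = 0.145) with I-BET151, which passed as lower without I-BET151 replicate 1 (adjusted p = 0.0373), at -2.17. Of the Itga4 exon bases 8.0% lie opposite Cerkl. The leukocyte marker in the table, Cd68, also fell with ITF2357 (-0.70 ± 0.13) but gave 0.02 ± 0.13 (adjusted p = 0.923) with I-BET151, and its part in the Itgb7 difference was not tested. Itgb2 and the platelet subunit Itga2b did not pass in any comparison with the control, although Itga2b with ITF2357 passed without control replicate 1 (adjusted p = 0.0477).

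**Figure D5:**
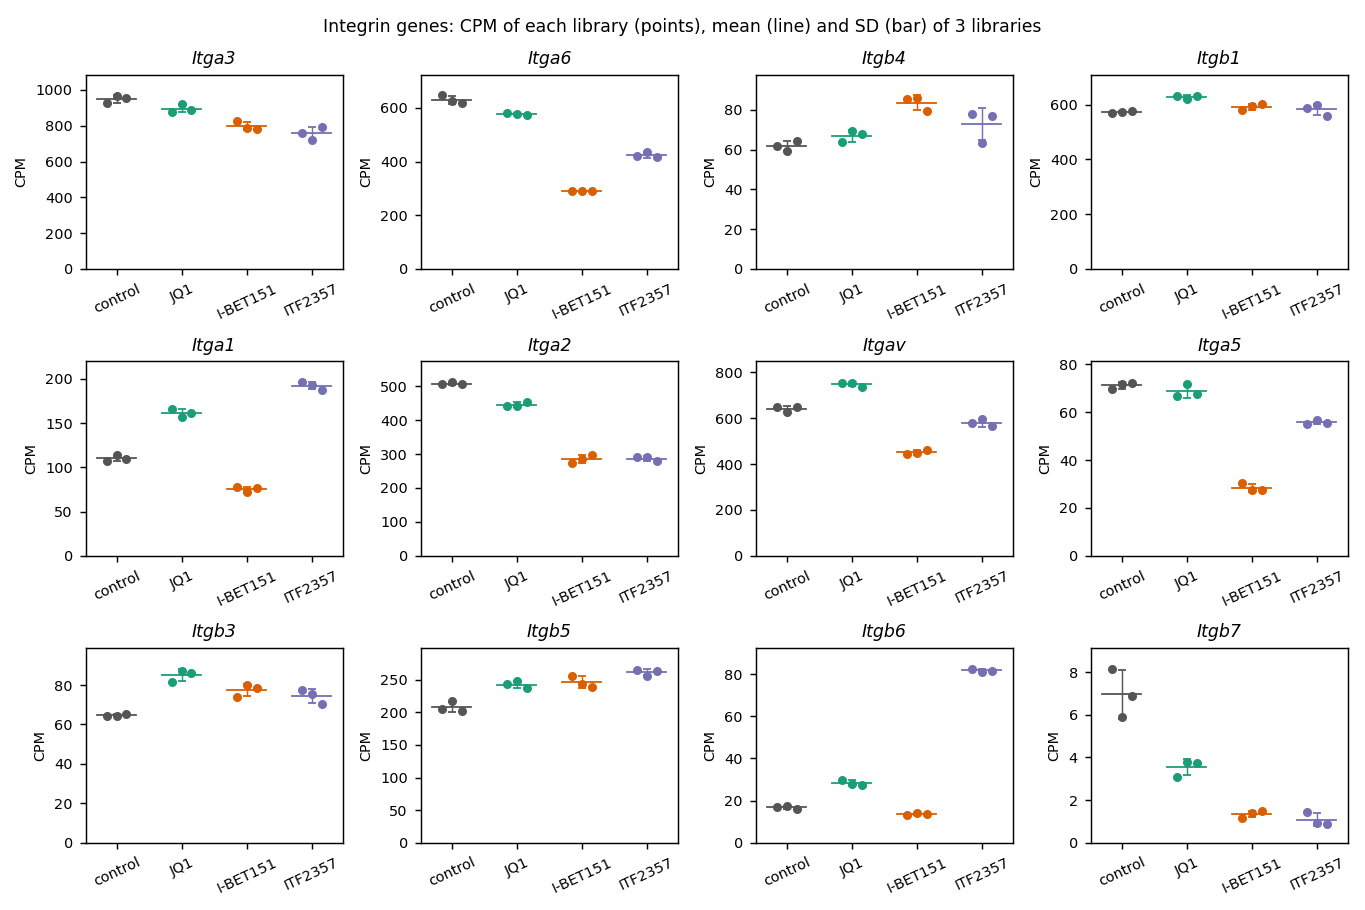
CPM of each library (points), with group mean (line) and SD (bar), for 12 integrin genes in the 4 groups of 3 libraries. Itgb1 stays near one level, Itga6 and Itga5 are lowest with I-BET151, Itgb6 is highest with ITF2357 and Itgb7 is lower in all treated groups.

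JQ1 and I-BET151 were compared directly, at equal dose and time. Whether this dose acts equally strongly for both was not tested, so potency cannot be told apart from other differences between them. Their scaffolds differ: that of JQ1 is a thienotriazolodiazepine, and that of I-BET151 is a quinoline bearing a dimethylisoxazole. Of the 48 genes, 38 differed between them (79.2%, against 60.4% of all genes), 5 higher and 33 lower with I-BET151, where 29.8% and 30.7% of all genes were called in these directions. With library totals 3288 of all genes were higher and 7276 lower. Of the 21 collagens 17 were lower with I-BET151 than with JQ1, and the other 4 did not pass. The largest differences were in Col8a1 (-4.95 ± 0.24, adjusted p = 1.21e-18), Col6a2 (-3.76 ± 0.10, adjusted p = 2.44e-26) and Col6a3 (-3.39 ± 0.52, adjusted p = 8.89e-07), apart from Col24a1 with its 1 count over the I-BET151 libraries. Of the integrins 13 were lower and 1, Itgb4, was higher with I-BET151. Among the laminins Lama3, Lama5, Lamb2 and Lamc1 were higher and Lamb1 and Lamb3 lower with I-BET151. Lamb1 differed by -1.48 ± 0.03 and Lamb2 by 0.92 ± 0.03 on the log2 scale. With library totals the differences of 9 genes near the middle moved by over 1.5 times and stayed called, among them Lama5 (from 0.23 ± 0.03 to 0.08), Itgb4 (from 0.32 ± 0.05 to 0.17) and Itgb1 (from -0.08 ± 0.02 to -0.24).

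Among members with ample counts, Col4a5 and Itgb5 did not differ detectably between the BET inhibitors. The log2 difference of Col4a5 was 0.04 ± 0.05 (adjusted p = 0.544), with a 95% interval of -0.07 to 0.15. That of Itgb5 was 0.02 ± 0.03 (adjusted p = 0.549), with an interval of -0.04 to 0.08, but it was -0.13 with library totals (adjusted p = 0.000227). Col4a1 and Col4a2 differed by -0.17 ± 0.03 and -0.11 ± 0.03, with intervals of -0.23 to -0.12 and -0.18 to -0.05, and by -0.33 and -0.27 with library totals. Against the control, whose libraries the 2 comparisons share, Col6a1, Col6a2, Col12a1, Col27a1, Itga1, Itgav and Itgb6 were called higher with JQ1 and lower with I-BET151. These were 7 (35%) of the members called with both compounds, and the other 13 (65%) went in the same direction. Over all genes called with both, 16.2% went in opposite directions and 83.8% in the same. The JQ1 calls of Col6a2 and Col27a1 were lost in some fits, the first without control replicate 1 or 3 or JQ1 replicate 2 (adjusted p from 0.0723 to 0.108) and the second with library totals (adjusted p = 0.0667) and without control replicate 1, 2 or 3 or JQ1 replicate 1 or 3 (adjusted p from 0.0519 to 0.281). The I-BET151 against JQ1 call of Itgb3 was lost without I-BET151 replicate 1 (adjusted p = 0.0735) and that of Itga10 without JQ1 replicate 1 or 3 or I-BET151 replicate 2 (adjusted p from 0.0677 to 0.134).

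ITF2357 differed from JQ1 in 37 members (77.1%, against 48.6% of all genes), 17 higher and 20 lower with ITF2357, where 25.4% and 23.2% of all genes were called (3612 and 5026 genes with upper quartile factors). Itgb6 (1.53 ± 0.05) and Lamb3 (1.45 ± 0.05) were among the genes higher with ITF2357, and Itgb7 (-1.68 ± 0.20), Lamb1 (-0.86 ± 0.03) and Col12a1 (-0.62 ± 0.05) among those lower. ITF2357 differed from I-BET151 in 37 members as well (77.1%, against 62.8% of all genes), 30 higher and 7 lower with ITF2357, against 31.9% and 30.9% of all genes, which were 7095 and 3729 genes with library totals. Of the collagens 17 were higher with ITF2357 and 1, Col11a2, was lower (-0.73 ± 0.27), a call lost with library totals (adjusted p = 0.0545) and without I-BET151 replicate 2 (adjusted p = 0.126). Col8a1 (5.06 ± 0.24), Col6a2 (3.48 ± 0.10), Lamb3 (3.16 ± 0.06) and Itgb6 (2.58 ± 0.06) were among the genes higher with ITF2357. Itga2 was at the same level in both groups, with a log2 difference of 0.00 ± 0.03 (adjusted p = 0.902) and a 95% interval of -0.05 to 0.06, although it was 0.14 with library totals (adjusted p = 2.4e-05).

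Genes that act on or with these proteins were read from 4 lists, and each was described by counts. All 4 are to be read against the 24.8%, 63.1% and 54.0% of all genes called with JQ1, I-BET151 and ITF2357. Of 28 genes of collagen processing, crosslinking and binding, among them the receptor kinases Ddr1 and Ddr2, 10 rose and 1 fell with JQ1 (39.3% called), 12 rose and 13 fell with I-BET151 (89.3%), and 14 rose and 9 fell with ITF2357 (82.1%). The lowest log2 fold change of the list was that of Ddr2 with each compound. P4ha3, a prolyl hydroxylase subunit, rose with JQ1 (0.71 ± 0.14) and ITF2357 (1.33 ± 0.13). Its mean with I-BET151 was above the control as well (5.5 against 3.56 CPM). Loxl2, a crosslinking lysyl oxidase, rose with JQ1 (0.63 ± 0.04) and I-BET151 (0.91 ± 0.04), and its mean with ITF2357 was 71.8 CPM against 43.9 in the control. The related Loxl3 fell with ITF2357 (-1.52 ± 0.26), and its mean with I-BET151 was 0.38 CPM against 2.57 in the control. Tll1, a protease of the family that trims procollagens, fell with I-BET151 (-3.55 ± 0.55). Pcolce2, a procollagen protease enhancer, rose with ITF2357 (0.77 ± 0.06), but its mean with I-BET151 was 6.35 CPM against 30.4 in the control.

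Of 18 basement membrane partners, 13 rose and 2 fell with JQ1 (83.3% called, against 24.8% of all genes), 10 rose and 7 fell with I-BET151 (94.4% against 63.1%), and 10 rose and 6 fell with ITF2357 (88.9% against 54.0%). Dag1, which encodes the laminin receptor dystroglycan, rose with I-BET151 (1.24 ± 0.03) and ITF2357 (0.59 ± 0.03), and the heparan sulfate proteoglycan Sdc4 rose with I-BET151 (0.92 ± 0.03). The nidogens, which link laminin to type IV collagen, parted with ITF2357: Nid1 fell (-0.67 ± 0.04) and Nid2 rose (1.20 ± 0.12). Nid1 also fell with I-BET151 (-0.84 ± 0.04), where the Nid2 mean was 6.01 CPM against 4.44 in the control. With JQ1 Nid2 rose (0.43 ± 0.13), and the Nid1 mean was above the control too, at 138 against 123 CPM. Plec, a hemidesmosome plakin, fell with I-BET151 (-0.66 ± 0.03), and Ntn1, a netrin related to laminins, fell with ITF2357 (-1.28 ± 0.18).

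Of 40 genes of the integrin adhesion complex, 15 rose and 7 fell with JQ1 (55% called, against 24.8% of all genes), 15 rose and 18 fell with I-BET151 (82.5% against 63.1%), and 15 rose and 14 fell with ITF2357 (72.5% against 54.0%), with medians of 0.00, -0.08 and -0.02 on the log2 scale. The scaffold gene Nedd9 rose with JQ1 (0.46 ± 0.04), I-BET151 (1.41 ± 0.03) and ITF2357 (0.54 ± 0.03), and Kank1, which encodes a talin-binding protein, rose as well (0.43 ± 0.05, 1.17 ± 0.04 and 0.57 ± 0.05). Parvb, a partner of integrin-linked kinase, fell with each (-0.35 ± 0.03, -1.43 ± 0.04 and -0.51 ± 0.03). Fermt1, the epithelial kindlin that activates integrins, fell with I-BET151 (-0.72 ± 0.04). Of 14 other integrin ligands, 7 rose with JQ1 and the other 7 did not pass (24.8% of all genes were called), 5 rose and 9 fell with I-BET151 (63.1% of all genes called), and 7 rose and 5 fell with ITF2357 (54.0%). A rise of Icam2 with I-BET151 (2.20 ± 0.67, adjusted p = 0.00459), named after its values were seen, had 1 library far above the others, at 0.243, 5.28 and 0.322 CPM against 0.374, 0.221 and 0.691 in the control. Tnc (tenascin C) rose with JQ1 (0.67 ± 0.25) and fell with ITF2357 (-1.56 ± 0.31). The Tnc mean was also lower with I-BET151, at 0.609 CPM against 1.94 in the control. Thbs1 rose with JQ1 (0.67 ± 0.02), and its mean was 366 CPM with I-BET151 and 940 with ITF2357 against 662 in the control. Fbn1 (fibrillin) fell with I-BET151 (-2.47 ± 0.52) and Tnxb (tenascin X) rose (1.79 ± 0.09), while Vcam1, the ligand of Itga4 with Itgb1, rose with ITF2357 (1.73 ± 0.03) and Fbln5 fell there (-2.49 ± 0.35). Vcam1 had means of 197 CPM with JQ1 and 99.5 with I-BET151 against 142 in the control. The Fbln5 mean was lower with I-BET151 as well, at 0.461 CPM against 1.85 in the control.

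Libraries of the compared groups did not overlap in 27 of the 48 genes with JQ1 (38.9% of all genes), 40 with I-BET151 (67.5%) and 32 with ITF2357 (58.1%), all against the control. Between I-BET151 and JQ1 the number was 39 (65.6%), between ITF2357 and JQ1 36 (53.7%) and between ITF2357 and I-BET151 36 (64.6%). The authors' deposited table of comparisons with the control, at an adjusted p under 0.05, held 20 of the members for JQ1, all 20 of them among the 22 found here. For I-BET151 the authors' deposited table held 40, all 40 shared, and for ITF2357 33, of which 31 were shared.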

How the data were processed

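RNA-seq counts of 12 libraries, 3 in each of 4 groups, were analysed. The submitters' processing notes name STAR 2.7.2a, the genome build mm10, featureCounts (Subread 2.0.1), bcl2fastq and edgeR 3.38.4, and the labels' protocols name paired-end reads. In the deposited table the authors gave raw counts, gene lengths, log2 CPM, log2 RPKM, their own log2 fold changes against control, and p-values with false discovery rates. Only the raw counts were tested. The authors' gene lengths gave the values per kb, and the deposited p-values gave the authors' own calls. The sources used give neither the rule for listing a gene nor the strand setting of the counting. The lowest total of a listed gene was 51 counts. Reads of genes that overlap on opposite strands may be mixed.

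The tests used edgeR 4.0.16 in R 4.3.3: filterByExpr (which removed 0 genes), TMM factors, and 1 quasi-likelihood fit over all 12 libraries without covariates. The 6 comparisons set each compound against the control and the compounds against each other. Calls were made at an adjusted p under 0.05 (Benjamini-Hochberg, 17340 genes). CPM values use TMM-scaled library sizes and are given as mean ± SD of 3 libraries, and a ± after a log2 fold change is its standard error. The 95% intervals are 1.96 standard errors to each side, and the counting interval of a count ratio covers counting error only. The common biological coefficient of variation was 3.37%. The test was also run on simulated counts in which few genes changed, and only in the I-BET151 group. That run cannot check the scaling where most genes are called.

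The 48 genes and the lists were chosen with earlier results of these data known. Values of 1 member are not reported here, though counts over the members include it. Genes given with every library are, per family, the 4 with the highest mean CPM and, per compound against control, the 2 with the largest called change whose libraries did not overlap and whose mean was at least 1 CPM. From each list at most 2 rises and 2 falls per comparison were named with log2 fold changes. For some of these genes the mean CPM in other groups was added. A compound left out for a gene of a list need not have left that gene unchanged. All 48 gene identifiers matched GENCODE M21, which gave the coordinates (mm10, counted from 1), and promoter windows are from RefSeq (GRCm38.p6). Alternatives were RLE and upper quartile factors, library totals, no filter, a mean of at least 1 CPM, fits of the 6 libraries compared, the replicate block, DESeq2 1.42.0, and leaving out each library.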

Additional observations from a re-analysis of the deposited data

How the results depend on the processing

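The number of the 48 genes called stayed within 1.5 times of its reported value in all 6 comparisons under every alternative run. With 1 library left out it ranged from 17 to 19 for JQ1 against control, from 38 to 41 for I-BET151 against control, from 30 to 32 for ITF2357 against control, from 36 to 39 for I-BET151 against JQ1, from 31 to 37 for ITF2357 against JQ1 and from 36 to 38 for ITF2357 against I-BET151. Over all genes the counts ranged from 3457 to 3719, 10246 to 10367, 8619 to 9124, 9749 to 9937, 7601 to 8219 and 10150 to 10551 in the same order. Of 205 called results of the 48 genes in the 6 comparisons, 183 kept their call in every fit without 1 library and 192 in every other setting in which the gene was fitted, since the filter at a mean of 1 CPM leaves some of them out. Among results called in the reported fit or in the alternative, signs turned in 5, all with library totals: the log2 fold change became -0.11 for Itgb1 in I-BET151 against control, -0.13 for Itgb5 in I-BET151 against JQ1, and 0.12 for Col4a5, 0.11 for Itgb1 and 0.06 for Itga3 (adjusted p = 0.0544) in ITF2357 against I-BET151. Library totals moved the median of all genes in these comparisons, so small differences there depend on the scaling. The median of the 48 genes with ITF2357 against control was 0.01, and -0.01 with library totals.

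Libraries of different groups share replicate numbers in the labels. Over all genes, their deviations from the group means were hardly correlated (r from -0.0906 to 0.0174). No broad shared deviation was thus seen, but a correlation over all genes cannot show whether the numbers pair the libraries. With the replicate block 21, 40, 31, 38, 36 and 37 of the 48 genes were called in the same order of comparisons, and 4141, 10865, 9247, 10361, 8251 and 10764 of all genes. Groups of 3 are too small for a check of single outlying libraries. Genes with few counts, such as Col24a1, Itga4, Itga11 and Col6a3, are the least precise.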
